A study of Mus musculus with 4 samples.

Results

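The genes described are 9 regulators linked to quiescence, the resting state of lymphocytes: the forkhead factors Foxo1, Foxo3 and Foxp1, the Krüppel-like factors Klf2 and Klf3, the antiproliferative genes Btg1, Btg2 and Tob1, and the arrestin-like gene Txnip. They and the gene lists below were chosen by name, with earlier results of these data known. Each regulator was taken through the brightest probe set that the platform annotation gave to that symbol alone. All 9 were measured among 22180 named genes. Signals came from 4 arrays, 1 for each group, of B lymphocytes sorted by B220 from cell suspensions of spleen, thymus and lymph nodes of C57BL/6 mice. The groups were wild-type cells and Tilcara cells, the latter from a mouse line with a mutated PKCbeta, each taken without stimulation or after 4 hours with the phorbol ester PMA at 10 ng/mL and the calcium ionophore A23187 at 1 µM. The labels used here give no age or number of mice and no description of the Tilcara allele beyond that. Spread between mice and technical spread thus cannot be told apart. The p-values rest on the difference between the responses of the genotypes and on a variance borrowed from all genes tested. That difference holds any effect of genotype on the response as well as noise.

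Resting B cells keep FOXO factors in the nucleus, where they act on genes of cell cycle arrest, stress resistance and homing; signalling through PI3 kinase and AKT phosphorylates FOXO proteins and moves them to the cytoplasm. KLF2 holds naive lymphocytes in a resting and recirculating state, partly through the egress receptor S1PR1, and KLF3 is a repressor of the same family. BTG and TOB proteins bind the CCR4-NOT deadenylase, which shortens poly(A) tails, and TXNIP binds thioredoxin and limits glucose uptake. PMA activates PKC enzymes and the ionophore raises calcium, so that the pair mimics signals downstream of the antigen receptor.

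Promoter windows, from 250 bases before to 50 bases after the start site, were taken from the RefSeq table for GRCm38.p6; all 9 genes had a window and Foxp1 had 3, giving 11. Of 4 motifs searched on both strands, the forkhead site TGTTTAC was found in the windows of Btg1 and Txnip, and in 3.65% of all 32851 windows. The E-box CACGTG (7.15% of all windows), the KLF-type CACC box CACACCC (7.95%) and the carbohydrate response element consensus (0.119%) were found in no window of these genes. A further pattern, 2 copies of CACGAG with 5 bases between them, was added after the Txnip sequence had been seen. Such E-box-like pairs are of the kind through which glucose acts on Txnip. The Txnip window was the 1 window of 32851 that held it, but its match was fixed in advance by that choice. The Btg1 window (chr10:96616751-96617050, plus strand) and the Txnip window (chr3:96557707-96558006, plus strand) are printed because they alone held a motif, with the motifs in capitals.
Btg1: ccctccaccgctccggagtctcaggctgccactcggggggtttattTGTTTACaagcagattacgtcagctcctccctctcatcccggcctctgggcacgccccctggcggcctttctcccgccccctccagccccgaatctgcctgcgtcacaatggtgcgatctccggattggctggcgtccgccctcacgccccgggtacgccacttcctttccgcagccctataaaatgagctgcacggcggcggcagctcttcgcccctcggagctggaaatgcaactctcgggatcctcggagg
Txnip: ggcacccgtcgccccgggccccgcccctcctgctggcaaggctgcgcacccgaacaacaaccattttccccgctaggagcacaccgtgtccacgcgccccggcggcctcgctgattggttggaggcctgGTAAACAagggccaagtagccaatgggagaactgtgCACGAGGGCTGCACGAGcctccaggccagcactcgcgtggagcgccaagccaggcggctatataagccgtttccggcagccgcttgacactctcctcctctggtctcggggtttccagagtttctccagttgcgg
In Txnip the forkhead site, read on the minus strand, began at -121 and the E-box-like pair at -85 from the start site, and in Btg1 the forkhead site began at -204; no motif overlapped another. These matches describe letters and are no evidence of binding.

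Values are log2 RMA signals, in which 1 unit stands for a 2-fold difference; a single array stands for each group, so a difference between arrays has no replicate check. The words rose and fell are kept for limma's calls at an adjusted p below 0.05 in a fit of stimulation plus genotype, which treats the genotypes as 2 samples per state and leaves 1 residual degree of freedom, so that unequal responses count as error. A prior variance from all genes tested adds 3.46 degrees of freedom, so it outweighs a gene's own spread in the SE and p. Of 12456 genes past the signal filter, 22.8% fell and 22% rose with stimulation. Of 7 B cell markers, the 6 measured were bright without stimulation, with signals of 8.94 to 11.4. All 6 fell with stimulation, to between 5.52 and 9.55, and fewer cells of a type and less RNA per cell cannot be told apart in such data. Of 7 T cell markers, 6 reached the signal floor of 3.83 without stimulation in wild type, against 1 in each other array, with summed log2 signals of 30.4 against 23.0 to 24.2. Of 8 neutrophil markers, 2 reached it there, S100a8 at 9.0 and S100a9 at 7.61; 1 did in non-stimulated Tilcara and 0 after stimulation. Of 7 NK cell markers, 5 reached it in each non-stimulated array and 2 in each stimulated array, and the 5 past the filter fell. The filter keeps a gene on its highest signal, so a gene can pass through the non-stimulated arrays alone. With the floor required in every array, 1 NK cell marker was left, which also fell. Of 7 macrophage markers, 4 reached the floor in non-stimulated wild type and 1 to 2 elsewhere, and of 6 dendritic cell markers 1 or 2 did in every array. The part of these cells in the results below was not tested, and the listed erythroid genes were not analysed here.

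With stimulation 8 of the 9 regulators fell, where 22.8% of all genes did, and none rose. The exception was Foxp1. Among the 8, the limma log2 change ran from -0.57 for Tob1 to -4.16 for Txnip, and the median over all 9 was -1.5, against 0.04 over all genes tested. In each of these 8, both stimulated arrays lay below both non-stimulated arrays, as was so for 35.5% of all genes. By size, 6 were at least 2-fold lower in wild type, 7 in Tilcara and 6 in both; the shares over all genes were 15.9%, 14.3% and 11.9%. Without stimulation the genotypes differed by 0.32 or less in every regulator, and 1 of them, Txnip, differed by at least 2-fold between stimulated arrays.

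**Figure D1:**
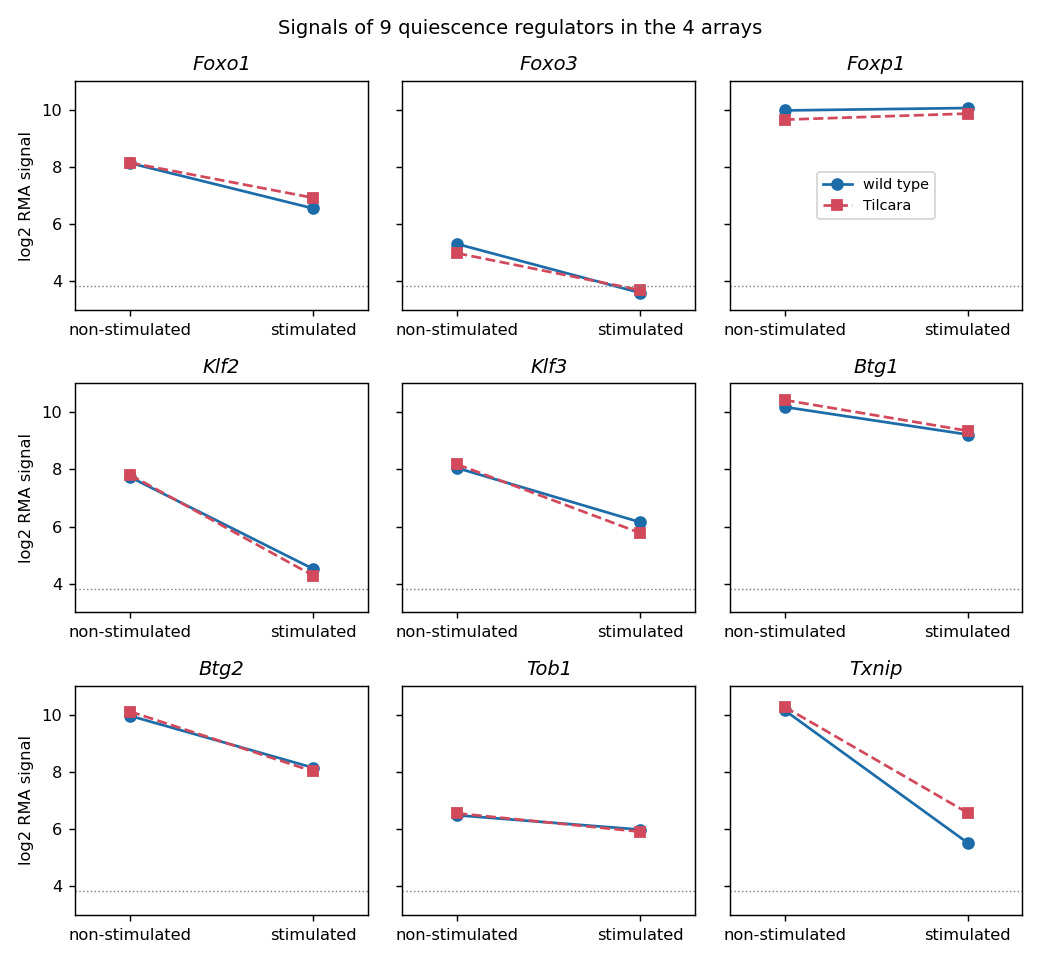
Log2 RMA signal (vertical axis) of each of the 9 regulators without and with stimulation, 1 array a point, with wild type as circles on solid lines and Tilcara as squares on dashed lines; the dotted line is the signal floor of 3.83. Lines fall in 8 panels, most steeply for Txnip and Klf2, and Foxp1 stays between 9.65 and 10.06.

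Among the forkhead factors, Foxo1 (probe set 17397497), the main FOXO gene of B cells, read 8.13 in resting wild-type cells and 8.15 in resting Tilcara cells, and 6.55 and 6.92 once stimulated. The non-stimulated signals were nearly equal, and both stimulated arrays were lower, the wild-type array more so. Foxo1 fell by 1.40 on the log2 scale, a 2.64-fold decrease (limma, SE 0.17, adjusted p = 0.00459). It was 2.99-fold lower in wild type and 2.34-fold lower in Tilcara. A dimmer Foxo1 probe set, 17405165, read 6.67, 5.97, 6.75 and 5.74 in non-stimulated wild type, stimulated wild type, non-stimulated Tilcara and stimulated Tilcara. By that probe set Foxo1 also fell, with a log2 change of -0.85 (limma, SE 0.16, adjusted p = 0.0158), but the decrease in wild type alone was 0.69, short of 2-fold, and it was larger in Tilcara, so the order of the genotypes depended on the probe set.

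Foxo3, a second FOXO factor with overlapping targets, had low signals. It read 5.30 and 4.98 in the non-stimulated wild-type and Tilcara arrays, and 3.60 and 3.69 in the stimulated ones. Both stimulated signals lay below the floor, so its fold changes of 3.26 in wild type and 2.44 in Tilcara are approximate. Foxo3 fell by 1.5 on the log2 scale (limma, SE 0.18, adjusted p = 0.00438).

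Foxp1, which encodes a forkhead repressor needed for B cell development and for naive T cell quiescence, went another way. Its signal was 9.97 in non-stimulated and 10.06 in stimulated wild type, and 9.65 and 9.86 in Tilcara. All 4 arrays lay within a narrow range, and the Tilcara arrays were the lower ones in both states. The log2 change with stimulation was 0.15 (limma, SE 0.15, adjusted p = 0.468); it was -0.20 after cyclic loess normalization, so its sign depended on the scaling.

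Klf2 (probe set 17502440) had the largest decrease of the regulators after Txnip. Its resting signals were 7.73 in wild type and 7.81 in Tilcara. Its stimulated signals were 4.52 and 4.29. Both stimulated arrays were within 1 log2 unit of the signal floor. Klf2 fell by 3.36 on the log2 scale, a 10.3-fold decrease (limma, SE 0.16, adjusted p = 0.00109), 9.23-fold in wild type and 11.5-fold in Tilcara. Ordered by this change from the most negative, it stood at place 139 of 12456 genes.

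Klf3 had resting signals of 8.05 in wild type and 8.17 in Tilcara. After stimulation these were 6.15 and 5.78. Klf3 fell by 2.15 (limma, SE 0.19, adjusted p = 0.00224), and it was 3.72-fold lower in wild type and 5.27-fold lower in Tilcara. Unlike Foxo3, and Foxo1 by its brighter probe set, both KLF genes had the larger decrease in Tilcara, a difference that single arrays leave untested.

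The BTG and TOB genes differed in how far they fell. Btg2, an early antiproliferative gene that p53 can induce, had a resting signal of 9.96 in wild type and 10.11 in Tilcara, against 8.15 and 8.02 after stimulation. Both stimulated arrays lay clearly lower. Btg2 fell by 1.95, a 3.86-fold decrease (limma, SE 0.16, adjusted p = 0.002).

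Btg1, whose protein helps to keep naive T cells quiescent and which is often mutated in B cell lymphoma, had resting signals of 10.18 in wild type and 10.42 in Tilcara. Its stimulated signals of 9.22 and 9.35 stayed high. Btg1 fell by 1.02, a 2.03-fold decrease (limma, SE 0.15, adjusted p = 0.00736); the decrease was 1.95-fold in wild type and 2.11-fold in Tilcara. Btg1 passed 2-fold in wild type too after cyclic loess, where its difference was -1.33.

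Tob1, a BTG relative that restrains T cell activation, changed least of those that fell. It read 6.48 and 6.55 in the non-stimulated arrays and 5.98 and 5.91 in the stimulated ones, for wild type and Tilcara in that order. Both stimulated arrays lay below both non-stimulated arrays, as was so for 35.5% of all genes, but close to them. The decrease of 0.57 (limma, SE 0.15, adjusted p = 0.037) was 1.49-fold. Without a filter on low signals the same decrease had a limma adjusted p of 0.06, no longer below the threshold, and over the alternatives this p ran from 0.0206 to 0.06.

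Txnip (probe set 17400599) had the largest decrease of the 9 genes. Its resting signals were 10.15 in wild type and 10.27 in Tilcara. After stimulation it read 5.52 in wild type and 6.57 in Tilcara, so both stimulated arrays were far lower but not equally so. Txnip fell by 4.16, a 17.9-fold decrease (limma, SE 0.26, adjusted p = 0.00141), 24.8-fold in wild type and 13.0-fold in Tilcara, and stood at place 38 of 12456 genes from the most negative change. Its SE was the widest of the 9, since the unequal responses count as error. A further probe set annotated to Txnip and another symbol was left out.

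**Figure D2:**
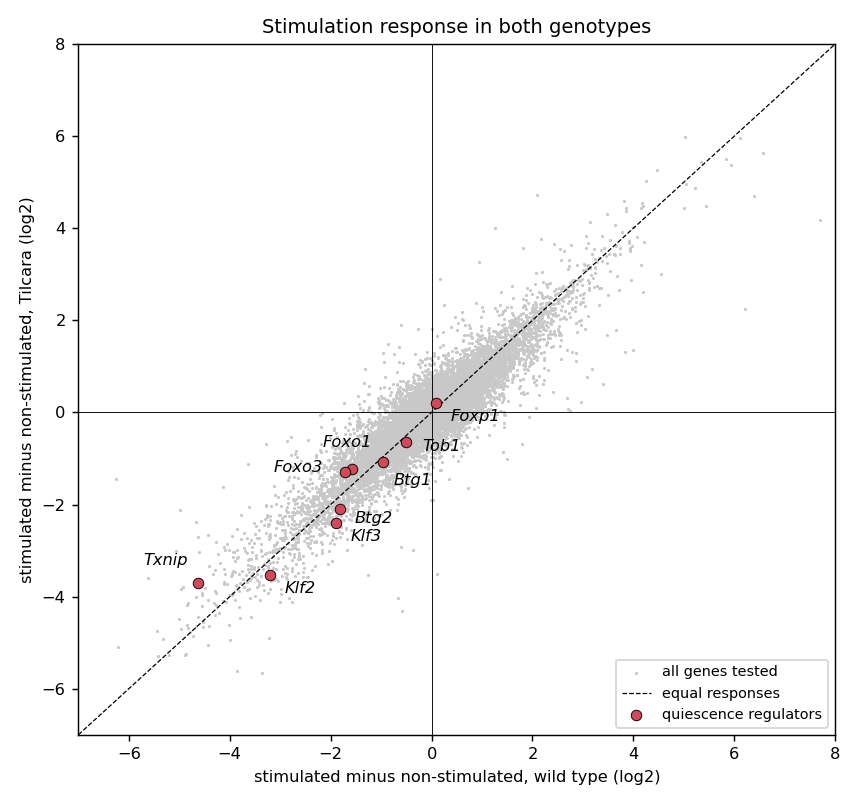
Stimulated minus non-stimulated log2 signal in wild type (horizontal axis) and in Tilcara (vertical axis), with each of the 12456 genes tested as a grey point and the 9 regulators in red; the dashed line marks equal responses. Txnip, Foxo1 and Foxo3 lie above that line, with smaller decreases in Tilcara, and Klf2, Klf3 and Btg2 lie below it.

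Between genotypes, Txnip was the 1 regulator that differed by at least 2-fold. In the stimulated arrays it was 2.07-fold higher in Tilcara, a log2 difference of 1.05, while 0.955% of all genes were at least 2-fold higher there and 0.747% lower. This difference was 1.08 with arrays centred on their median and 1.0 after cyclic loess, close to the threshold in both. The filter alternatives cannot change it, and Txnip had 1 probe set of its own. Without stimulation the Txnip signals differed by 0.12. The Txnip response was thus smaller in Tilcara by 0.93 log2 units, and 2.32% of all genes had a difference of responses of at least 1 in that direction; with no replicate this difference was not tested. Some B cell markers also differed between the stimulated arrays, where Cd79b was higher in Tilcara by 1.61 log2, Cd79a by 0.81 and Ptprc by 0.63. The rest of the 6 measured markers did not share this, with Cd22 at 0.05, Ms4a1 at -0.0009 and Pax5 at -0.27. The summed log2 signals of the 6 were 46.2 in Tilcara and 43.4 in wild type, against 63.0 and 63.3 without stimulation. The response of Cd79b was smaller in Tilcara by 1.77, and the part of these markers in the Txnip difference was not tested.

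The other 8 regulators differed by genotype by -0.32 to 0.24 without stimulation and by -0.38 to 0.37 with it. None of the 9 reached 2-fold without stimulation, where 1.08% of all genes did in either direction. In the stimulated arrays Klf3 was 1.3-fold lower in Tilcara and Foxo1 1.29-fold higher, the latter reversed to -0.23 log2 by its dimmer probe set. Differences of the responses ran from -0.50 for Klf3 to 0.42 for Foxo3 apart from Txnip. Taken over both states, limma called no gene for genotype, among 12456 tested, 667 of which (5.35%) had an unadjusted p below 0.05; with trend in the prior the count was also 0. The adjusted p of the 9 regulators in that test was 0.866 to 0.999, which does not show that the genotypes were alike. The T cell and neutrophil markers given above also differed between the non-stimulated arrays.

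**Figure D3:**
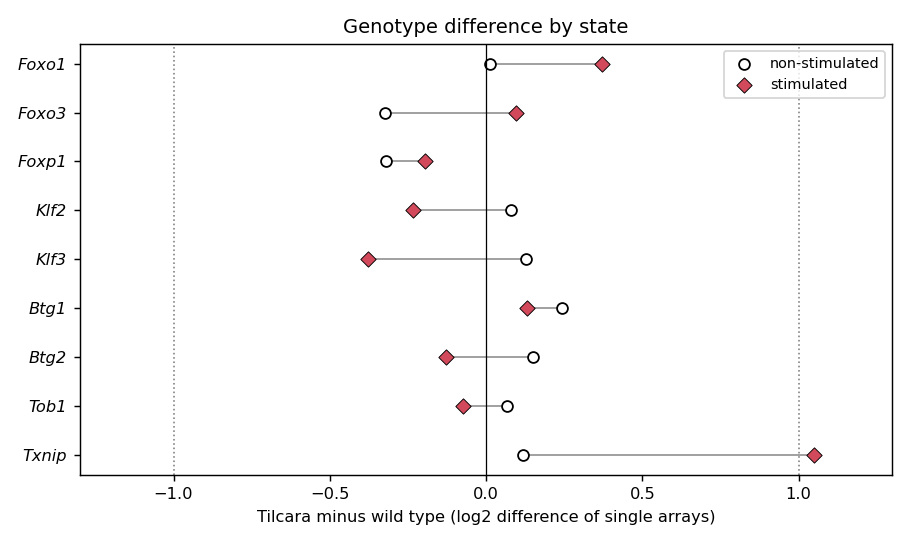
Tilcara minus wild-type log2 signal (horizontal axis) of each regulator, without stimulation as open circles and with stimulation as red diamonds; dotted lines mark 2-fold in either direction. Txnip after stimulation, at 1.05, is the 1 value past 2-fold.

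Relatives of the regulators did not move as a block. Counts here and in the lists below stand beside 22% of all genes tested that rose and 22.8% that fell. Here and in the lists below, a log2 change is approximate where a signal lay below the floor of 3.83. That was so in at least 1 array for Klf7, Klf12, Il7r, Ccng2, Itgb7, S1pr4, Slc2a3, Ddit4, Rbl2, Foxj1, Hivep3 and E2f2. These genes are not tested in the alternative that requires the floor in every array. Of the 15 other forkhead genes listed, 13 passed the filter, and 6 rose, 2 fell and 5 were not called. Foxj2 fell by 2.0 and the FOXO gene Foxo4 by 0.68, the latter with a limma adjusted p of 0.0384, which was 0.0615 without a filter. Foxn2 rose by 1.54, Foxk2 by 1.13 and Foxp4, of the same subfamily as Foxp1, by 0.94. Foxo6 and Foxp3 were not called, at 0.24 and 0.33.

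Of 15 other KLF genes, 12 passed the filter, with 3 that rose and 5 that fell, where 22% and 22.8% of all genes tested did. Klf7 fell by 3.0, to a signal of 3.28 in stimulated wild type, below the floor. Klf4, an antiproliferative relative of Klf2, fell by 1.31, from 5.88 to 5.01 in wild type and from 6.39 to 4.63 in Tilcara, and Klf13 fell by 1.27. Klf12 fell by 0.87 and Klf6 by 0.82. Klf10, a TGF-beta-induced gene, rose by 1.63, Klf9 by 1.36 and Klf16 by 1.02. Klf11 was not called at -0.88, as it was lower by 1.48 in wild type and by 0.29 in Tilcara.

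Of the BTG and TOB relatives, Tob2 alone passed the filter; its change of -0.50 was not called, with -0.16 in wild type and -0.84 in Tilcara. Among the alpha-arrestins, the family of Txnip, Arrdc3 fell by 3.07 and Arrdc1 by 1.44, and Arrdc2 was not called at 0.19. Arrdc3 resembled Txnip in having a lower stimulated signal in wild type (4.26, from 7.76) than in Tilcara (4.76, from 7.4). Arrdc4, which like Txnip is a target of the glucose-sensing factors, stayed below the floor, between 3.26 and 3.41.

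**Figure D4:**
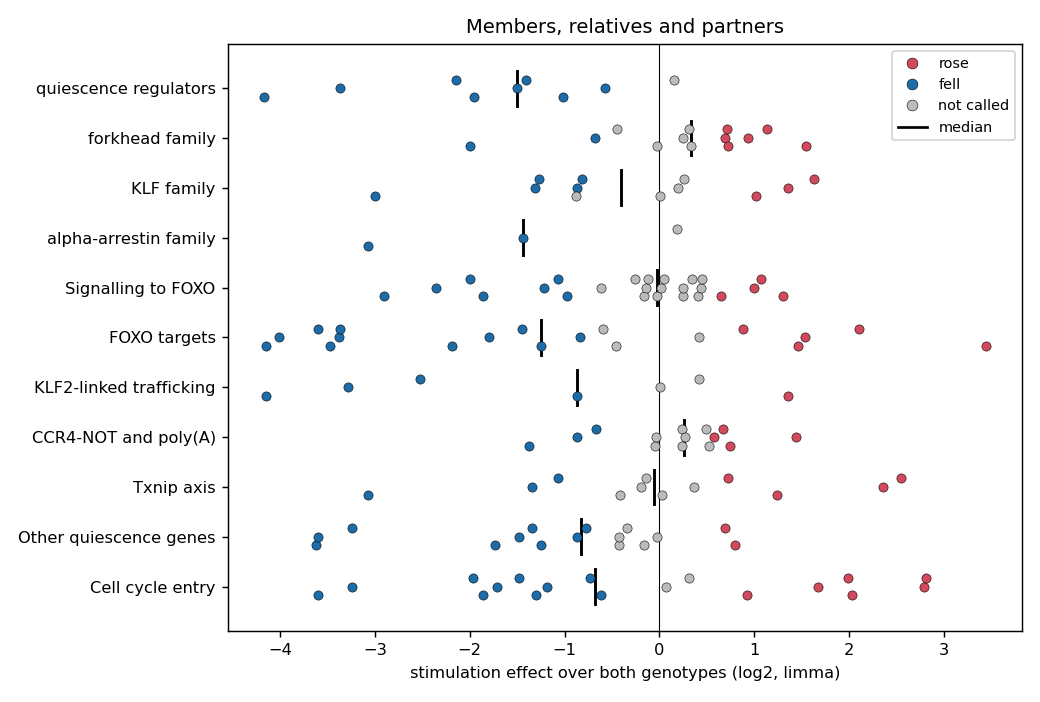
Limma log2 change with stimulation over both genotypes (horizontal axis) of each gene past the filter in the regulators, their families and the lists of partners and targets, with genes that rose in red, fell in blue and were not called in grey; bars are medians. Some genes are in more than 1 list. The regulators, FOXO targets and other quiescence genes lie mostly left of 0, and other forkhead genes mostly right of it. The left side is not particular to these lists. Medians were also below 0 for cell cycle entry (-0.67), trafficking linked to KLF2 (-0.87), the KLF family (-0.41) and alpha-arrestins (-1.44).

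Of 25 measured genes that signal to FOXO, 4 rose and 7 fell with stimulation, near the shares of all genes tested (22% and 22.8%). With trend in the prior 9 rose and 8 fell, and after cyclic loess 3 rose and 9 fell. Inpp5d, which encodes the lipid phosphatase SHIP1, fell by 2.90, the PI3 kinase regulatory subunit gene Pik3r1 by 2.0, the SGK family kinase gene Sgk3 by 2.35 and Inpp4b by 1.86. The kinase gene Akt1 rose by 1.07 and Phlpp1, for a phosphatase of AKT, by 1.3. Of the 14-3-3 genes, whose products hold phosphorylated FOXO in the cytoplasm, Ywhag rose by 1.0 and Ywhae by 0.65, and the other 4 measured were not called, with Ywhab at 0.45, Ywhaq at 0.25, Ywhah at -0.14 and Ywhaz at -0.26. Ywhae was not called after cyclic loess (limma adjusted p = 0.186) or without a filter (0.0525). Ywhaz was called as lower after cyclic loess, at -0.635 (limma adjusted p = 0.0222), and with trend in the prior (0.014), where Ywhab and Ywhaq were called as higher (0.0179 and 0.0383). Phosphorylation of FOXO itself is not measured by an array.

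Targets of FOXO factors mostly fell, with exceptions. Of 23 listed, 19 passed the filter, of which 11 fell and 5 rose, with a median of -1.25; without Klf2, which is one of the 9 regulators, 10 of 18 fell and 5 rose. The egress receptor gene S1pr1 fell by 4.15, the catalase gene Cat by 4.02, the CDK inhibitor gene Cdkn1b by 3.60 while the stress gene Sesn1 fell by 3.47. S1pr1 read 8.65 and 8.66 without stimulation, and 4.17 in wild type and 4.84 in Tilcara with it. Ccng2, a cyclin linked to arrest, fell by 3.38 and Pik3ip1, an inhibitor of PI3 kinase, by 1.25. Those that rose were Il7r by 3.45, the death gene Bcl2l11 by 2.10, Sod2 by 1.54, Cited2 by 1.46 and Irs2 by 0.88. Il7r, a well-known Foxo1 target in lymphocytes, thus went opposite to Foxo1 in both genotypes, from 4.2 to 7.26 in wild type and from 3.23 to 7.07 in Tilcara.

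Of 7 measured genes of trafficking linked to KLF2, 4 fell and 1 rose, with a median of -0.87. With the floor required in every array, Itgb7 and S1pr4 were left out. Of the 5 genes then tested, 2 fell and 1 rose, with a median of 0.003. Beside S1pr1, the integrin gene Itgb7 fell by 3.28, the receptor gene S1pr4 by 2.52 and Cxcr5, which guides B cells to follicles, by 0.87. Cd69, whose product removes S1PR1 from the surface, rose by 1.35, more in wild type (1.85) than in Tilcara (0.85). Ccr7 and Cxcr3 were not called, at 0.42 and 0.00.

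The deadenylation partners of BTG and TOB went both ways. Of 14 measured genes of CCR4-NOT and poly(A) binding, 4 rose and 3 fell, with a median of 0.26. These counts are near the shares of all genes tested, of which 22% rose and 22.8% fell. Pabpc4, for a poly(A)-binding protein, rose by 1.44, and the deadenylase genes Pan2 and Parn fell by 1.37 and 0.87. Cnot11 rose by 0.74, and Cnot7, for the deadenylase that BTG and TOB bind, was not called at 0.53 (limma adjusted p = 0.0522). Counts were 2 that rose and 3 that fell after cyclic loess, where Cnot4 and Pabpc1 were no longer called. They were 6 and 3 under 5 other alternatives, which were arrays centred on their median, the mean over probe sets, the floor in every array, trend in the prior and no genotype term; there Cnot7 and Cnot9 were also called as higher, Cnot7 with a limma adjusted p of 0.0306 to 0.0494.

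In the list around Txnip, 12 of 15 measured genes passed the filter, with 4 that rose and 3 that fell, where 22% and 22.8% of all genes tested did. The hexokinase gene Hk2 rose by 2.55, the thioredoxin reductase gene Txnrd1 by 2.35, and the thioredoxin genes Txn2 and Txn1 by 1.24 and 0.72, the last with a limma adjusted p of 0.0198 that was 0.0615 after cyclic loess. Arrdc3, Ddit4 (-1.34) and the glucose transporter gene Slc2a3 (-1.07) fell. Mlxip and Mlx, for the glucose-sensing factors that act on Txnip, were not called, at -0.20 and -0.41, and the transporter gene Slc2a1 was not called at 0.36.

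Of 16 other quiescence genes, 9 fell and 2 rose, a group that shares Cdkn1b, Pik3ip1, Ddit4 and Foxj1 with the lists above. After cyclic loess 12 fell and 2 rose, and with trend in the prior 10 fell and 1 rose. Without a filter 9 fell and 1 rose. With the floor in every array, 7 of 12 fell and 0 rose. Ets1 fell by 3.62, the retinoblastoma relative Rbl2 by 3.24 and Zfp36l2, for an mRNA decay factor, by 1.74. The steroid-induced gene Tsc22d3 fell by 1.48. Slfn2, needed for lymphocyte quiescence, was not called at -0.03, with 0.34 in wild type and -0.39 in Tilcara. Foxj1, a forkhead gene linked to T cell quiescence, rose by 0.69 with signals near the floor and a limma adjusted p of 0.0261 that was 0.0506 with trend in the prior. Hivep3 rose by 0.80, from non-stimulated signals of 3.80 in wild type and 3.73 in Tilcara, below the floor. Its limma adjusted p of 0.0341 was 0.0545 without a filter.

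Of 18 measured genes of cell cycle entry, 6 rose and 10 fell. After cyclic loess, with arrays centred on their median or with trend in the prior, 9 fell. Without a filter 8 fell, as Ccnd3 and E2f3 were no longer called. With the floor in every array, 8 of 15 fell. The number that rose was 6 in each of these. The G1 genes Ccnd2, Cdk6, Cdk4 and Myc rose by 2.81, 2.79, 1.67 and 1.98. The CDK inhibitor gene Cdkn1a rose by 2.03, while Cdkn1b fell by 3.60, and Rb1, Rbl1 and Rbl2 fell by 1.96, 1.86 and 3.24. Ccne1 and E2f2, which act later in G1, fell by 1.19 and 1.3.

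For each regulator, the genes most alike in pattern were taken among 11117 others as those with the smallest Euclidean distance between the 4 signals, each gene centred on its own mean. For Txnip these were S1pr1 (distance 0.27 log2) and H2-Oa (0.33), the widest distances of the 9. For Klf2 they were Flna (0.07) and Trp53i11 (0.12), and for Klf3 Sfxn3 (0.10) and the FOXO target Sesn3 (0.11). Foxo1 was nearest to Miip (0.03) and Spice1 (0.03), and Foxo3 to Ppdpf (0.05) and Clybl (0.07). Btg1 was nearest to Ppp1r9b (0.02) and Galk2 (0.02), Btg2 to Tbc1d8b (0.06) and Zbtb4 (0.07), Tob1 to Cep63 (0.03) and Hemk1 (0.03), and Foxp1 to Agrn (0.02) and Nrf1 (0.03). No regulator was among the 2 nearest genes of another. Such likeness rests on 4 arrays and is a description.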

How the data were processed

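B lymphocytes sorted by B220 were measured on 4 Affymetrix arrays, 1 a group, grouped by sample title. The deposited log2 signals were made by the authors with RMA, per the submitters' processing notes; its version, the software and a genome build are not given in these sources. Quantile normalization within RMA hides a change in total RNA per cell. Of 41345 probe sets, 23521 had 1 gene symbol, 1814 several and 16010 none in the platform annotation; only the first were named, and 23328 of them had a gene ID in the RefSeq table. The probe set with the highest mean stood for its gene. Genes were kept where the highest signal reached 3.83, the median of named values, leaving 12456, all 9 regulators included. limma 3.58.1 in R 4.3.3 fitted stimulation plus genotype, with Benjamini-Hochberg adjustment over all genes; the method was tested on simulated data. Other comparisons were differences of single arrays, counted at 2-fold. Array number limits the precision. Alternatives covered scaling, probe sets, filters, the prior, the model and the fold threshold. The rule for named genes took all regulators, up to 4 genes of each list by size of change (further list members were named after their values were seen), relatives past 2-fold and the 2 nearest patterns. Members and lists were chosen with earlier results of these data known.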

Additional observations from a re-analysis of the deposited data

Results flagged for a closer look

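Tilcara and wild type differed in opposite directions without and with stimulation for 5 of the 9 regulators. That was so for 47.0% of all genes tested, so the count is near that of genes at large. With single arrays, the difference between the states was not tested, and each value was below 2-fold. Foxo3 was lower in Tilcara without stimulation and higher with it, by -0.32 and 0.095 on the log2 scale, a shift of 0.417; the stimulated signals lay below the floor. Klf2 differed by 0.081 without stimulation and -0.24 with it (shift -0.316), and Klf3 by 0.13 and -0.38 (shift -0.504). Btg2 differed by 0.15 and -0.13 (shift -0.277), and Tob1 by 0.067 and -0.073 (shift -0.14). The other 4 regulators kept their sign across the states in the main processing, but for Foxo1 this did not hold in every alternative. Without and with stimulation, Foxo1 differed by -0.03 and 0.33 after cyclic loess, and by 0.09 and -0.23 with its dimmer probe set.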

How the results depend on the processing

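The decrease with stimulation kept its direction in every alternative for the 8 regulators that fell. Only the scaling alternatives and, for Foxo1, the probe set alternatives could change that direction. The filter, prior and model alternatives leave the estimate as it was and change only its SE or p. Of 63 recomputed limma tests of the 9 regulators, 62 stayed on the same side of the threshold. The exception was Tob1 without a filter, as given above. Foxo3 has no value where the floor must be reached in every array. Over all genes, a 1.5-fold threshold gave 2951 genes higher and 3083 lower in wild type, 2766 and 2834 in Tilcara, 413 and 422 for Tilcara against wild type without stimulation, 584 and 455 with it, and 1091 and 1003 for the difference of the responses, of which 1 higher gene was a regulator, Txnip. Requiring the floor in every array gave 21 and 23, 67 and 51, and 140 and 102 for the last 3 comparisons. Without a filter, 331 genes had a response lower in Tilcara by at least 1. After cyclic loess Foxp1 differed by -0.28 in wild type and -0.12 in Tilcara, and Foxo1 by -0.03 between non-stimulated genotypes. With its dimmer probe set, Foxo1 differed by -0.69 in wild type, by -0.23 between stimulated genotypes and by -0.31 in the difference of the responses. The cause of these changes was not tested. No paired analysis was possible because the titles carry no replicate number to pair by, beyond the genotype term of the limma fit, which already sets each stimulated array against the non-stimulated array of its genotype; the fit without that term called the same number of regulators, 8, as lower.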
